A study of Homo sapiens with 6 samples.

Results

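Hemidesmosome and laminin-332 genes were examined in bladder cancer cells in which the long noncoding RNA *LNMAT1* was silenced. The group held 9 genes of 50868 with values in the table, chosen by symbol: *ITGB4*, *ITGA6*, *ITGA3*, *ITGB1*, *ITGA2*, *LAMA3*, *LAMB3*, *COL17A1* and *PLEC*. Every one was listed in all 6 libraries. The lines UM-UC-3 and 5637, both established from human bladder cancer, were sequenced for their RNA after each had been infected with lentivirus carrying a negative control hairpin (sh-NC) or 1 of 2 hairpins that target *LNMAT1* (sh-LNMAT1#1 or sh-LNMAT1#2). All 6 were stable lines kept after puromycin selection, and each combination of line and construct gave 1 library, so that the hairpins stand in for replicates and p-values measure only the spread between these libraries. Dulbecco's modified Eagle's medium was used for UM-UC-3 and RPMI for 5637, so line and medium cannot be told apart.

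Hemidesmosomes rivet the base of an epithelial cell to the basement membrane. Integrin α6β4 binds laminin-332 outside the cell, collagen XVII spans the membrane beside it, and plectin ties the complex to keratin filaments inside. Laminin-332 is a trimer that holds an α3 and a β3 chain, and integrin α3β1, which signals to actin rather than keratin, binds it as well. In the urothelium such genes mark mainly the basal cells.

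The libraries held between 19375000 and 24711000 fragments, as read from single-exon genes. The targeted RNA, listed as *LINC01296*, was lower with both hairpins in both lines, with log2 changes of -1.13 and -1.02 in UM-UC-3 and of -1.23 and -2.21 in 5637 against the library labelled sh-NC. The library labelled 5637 sh-NC stood apart from its line. Its correlation across genes was 0.922 to 0.985 with the UM-UC-3 libraries and 0.617 to 0.622 with the 5637 sh-LNMAT1 libraries (across genes, which are not independent replicates). Of the 9 genes, 8 lay nearer the UM-UC-3 mean in it, against 79.6% of all 12717 genes. Of the 9, 6 lay inside the UM-UC-3 range, against 54.0% of these genes, and 0 inside the range of the 5637 sh-LNMAT1 pair, against 8.96%. Every result that uses this library is therefore given as one against the library labelled 5637 sh-NC, and the lines were compared through their sh-LNMAT1 libraries, which need neither control. *EPCAM*, a defining one, was at 0.0210 and 0.0204 FPKM in the UM-UC-3 sh-LNMAT1 libraries and at 33.8 and 35.6 FPKM in those of 5637. The leukocyte marker *PTPRC* was at most 0.0108 FPKM in any library.

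The 5637 sh-LNMAT1 libraries held more RNA for the hemidesmosome integrin chains, the laminin-332 chains α3 and β3 and collagen XVII than those of UM-UC-3. They held less RNA for plectin and integrin β1, and no protein was measured in these libraries. With limma on log2(FPKM + 0.5), FPKM being fragments scaled to gene length and library size, 6 of the 9 genes were higher in 5637 and 2 were lower at a Benjamini-Hochberg adjusted p under 0.05. Among all 12844 genes tested, 20.1% were higher and 18.4% lower. Of the 9, *ITGB4*, *LAMA3* and *COL17A1* passed the filter on low values (a mean of 1 FPKM) through 5637 alone, and a gene that enters in that way had to differ. With a mean of 1 FPKM required in the sh-LNMAT1 libraries of each line, 6 of the 9 were left, of which 3 were higher and 2 lower, against 13.9% and 15.6% of 10476 genes. The median difference (5637 minus UM-UC-3) was 2.22 over the 9 genes and -0.02 over all genes. With all 6 libraries grouped as labelled, 0 of the 9 passed, against 1 gene higher and 1 lower among all 12717 tested. The 8 genes otherwise called then had a limma adjusted p from 0.335 to 0.389. In bulk RNA, fewer cells of a type and less RNA per cell cannot be told apart.

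The integrin β4 gene *ITGB4* (ENSG00000132470, GRCh38 chromosome 17, 75721328 to 75757818, forward strand) encodes the partner of α6 whose long tail contacts plectin. In UM-UC-3 its levels with sh-NC, with hairpin #1 and with hairpin #2 were 0.0161, 0.0356 and 0.0173 FPKM. The library labelled 5637 sh-NC had 0.0221 FPKM, and the 5637 sh-LNMAT1 pair reached 111 and 109 FPKM. The 5637 pair was high, the other 4 libraries were near 0, and the groups did not overlap. The UM-UC-3 values rest on at most 2.69, 5.37 and 2.68 fragments. The fitted difference between the lines was 7.71 (SE 0.19, limma adjusted p = 1.47e-04, n = 2 and 2). Its size depends on the pseudocount, and no fold change is given for that reason.

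*ITGA6* (ENSG00000091409, chromosome 2, 172427354 to 172506282, forward strand) encodes the α6 chain, which can pair with β4 or β1. UM-UC-3 held 14.6, 15.2 and 19.9 FPKM in the same order. The library labelled 5637 sh-NC held 11.2 FPKM, and the 5637 sh-LNMAT1 pair 71.2 and 97.3 FPKM. Both 5637 sh-LNMAT1 libraries lay above every other library, yet unlike *ITGB4* the gene was well above 0 in UM-UC-3. The difference between the lines was 2.22 (SE 0.25, limma adjusted p = 0.00219), or 4.67-fold. Within the 5637 pair *ITGB4* was 1.56 and 1.12 times *ITGA6* in FPKM, a scale per length.

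The laminin-binding and collagen-binding integrins outside the hemidesmosome took different courses. *ITGA3* (ENSG00000005884, chromosome 17, 50055968 to 50090481, forward strand) encodes the α3 chain of the laminin-332 receptor α3β1. It was at 87.8, 83.1 and 74.5 FPKM in UM-UC-3, at 50.2 FPKM in the library labelled 5637 sh-NC, while it stood at 75.2 and 78.6 FPKM in the 5637 sh-LNMAT1 pair. The sh-LNMAT1 libraries of the lines overlapped, and the library labelled 5637 sh-NC was the lowest. The difference was -0.03, with a 95% interval of -0.50 to 0.43 and a limma adjusted p of 0.899.

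*ITGB1* (ENSG00000150093, chromosome 10, 32900319 to 33005792, reverse strand) encodes β1, the partner shared by α2, α3 and α6. UM-UC-3 held 204, 398 and 218 FPKM, the library labelled 5637 sh-NC 299.9 FPKM, and the 5637 sh-LNMAT1 pair 96.3 and 100.9 FPKM. The 5637 pair was the lowest and did not overlap the other libraries. The difference was -1.57 (SE 0.32, limma adjusted p = 0.0149), with 2.98-fold less in 5637. In those 2 libraries *ITGB1* was 0.866 and 0.929 times *ITGB4* in FPKM.

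*ITGA2* (ENSG00000164171, chromosome 5, 52989326 to 53094779, forward strand) encodes the α2 chain of a collagen receptor that also binds laminin. UM-UC-3 held 2.63, 3.89 and 1.05 FPKM, the library labelled 5637 sh-NC 1.96 FPKM, and the 5637 sh-LNMAT1 pair 15.5 and 28.7 FPKM. The pair was above all others, and the spread within both lines was wide. The difference was 3.05 (SE 0.56, limma adjusted p = 0.0112), or 8.27-fold.

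The laminin-332 chains among the 9 were both higher in 5637, from different starting levels. *LAMA3* (ENSG00000053747, chromosome 18, 23689443 to 23955066, forward strand) encodes the α3 chain, which carries the integrin-binding end of the trimer. It was at 0.0554, 0.248 and 0.0596 FPKM in UM-UC-3, at 0.122 FPKM in the library labelled 5637 sh-NC, while it stood at 18.0 and 40.1 FPKM in the 5637 sh-LNMAT1 pair. The 4 low libraries did not overlap the pair. Depending on the transcript, the UM-UC-3 values rest on between 0.632 and 81.2 fragments, and the fitted difference of 5.41 (SE 0.42, limma adjusted p = 6.11e-04) is no bound on the fold.

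*LAMB3* (ENSG00000196878, chromosome 1, 209614870 to 209652466, reverse strand) encodes the β3 chain. UM-UC-3 held 22.0, 13.3 and 28.3 FPKM, the library labelled 5637 sh-NC 19.9 FPKM, and the 5637 sh-LNMAT1 pair 60.8 and 116 FPKM. The β3 gene was thus expressed in every library, including those in which *LAMA3* was near 0. The difference was 2.08 (SE 0.46, limma adjusted p = 0.0204), or 4.23-fold, and it was no longer called when UM-UC-3 sh-LNMAT1#1 was left out (1.55, adjusted p = 0.0622). In the 5637 pair *LAMB3* was 3.37 and 2.88 times *LAMA3* in FPKM.

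Sequence upstream of the annotated starts was read from RefSeq (GRCh38.p14) for 10 windows of 250 bases at 6 of the 9 genes. The letters TGANTCA, an AP-1-type motif that reads the same on both strands, were searched after the line differences of the laminin genes had been seen. They stood in 2 of the 10 windows, 1 at *LAMA3* and 1 at *LAMB3*, and in 6.57% of all 35116 windows. The windows at the other *LAMB3* starts, farther upstream, held none. Any part of the motif in the levels was not tested. The stretches of 27 bases that hold the matches are shown 5′ to 3′ on the strand of the gene, with the motif in capitals.
LAMA3, chr18:23872885-23872911, forward strand, 125 bases before the start: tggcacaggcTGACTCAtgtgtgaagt
LAMA3, chr18:23872941-23872967, forward strand, 69 bases before the start: cttcctcaccTGAGTCAggcaggcccg
LAMB3, chr1:209651425-209651451, reverse strand, 67 bases before the start: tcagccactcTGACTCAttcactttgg
Both windows lie inside the listed span of their gene, at starts within it. In GENCODE 29 the *LAMA3* stretches are exonic in another transcript of the gene, and the *LAMB3* stretch touches no exon. The letters CACCTG, or their reverse complement, stood in 3 of the 10 windows, at *LAMA3*, *LAMB3* and *ITGA6*, and in 17.5% of all windows. A match is a description of these letters, and FPKM per gene does not show which start was used.

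*COL17A1* (ENSG00000065618, chromosome 10, 104031286 to 104086002, reverse strand) encodes collagen XVII, the transmembrane collagen of the hemidesmosome. It was at 3.40, 0.216 and 1.16 FPKM in UM-UC-3, at 0.298 FPKM in the library labelled 5637 sh-NC, while it stood at 33.8 and 31.3 FPKM in the 5637 sh-LNMAT1 pair. The pair was close together and above every other library, and the UM-UC-3 values were the most spread of the 9 genes relative to their level. The difference was 4.92 (SE 0.42, limma adjusted p = 8.00e-04), and its size too depends on the pseudocount.

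*PLEC* (ENSG00000178209, chromosome 8, 143915147 to 143976734, reverse strand) encodes plectin, the linker from β4 to keratin. UM-UC-3 held 48.9, 44.5 and 48.4 FPKM, the library labelled 5637 sh-NC 40.8 FPKM, and the 5637 sh-LNMAT1 pair 21.4 and 15.0 FPKM. The pair was lowest and did not overlap the rest, so that *PLEC* went the other way from *ITGB4*. The difference was -1.35 (SE 0.24, limma adjusted p = 0.0097), with 2.55-fold less in 5637. With either 5637 sh-LNMAT1 library left out, a single library stood for 5637 and calls among all genes fell. *PLEC*, *ITGB1*, *ITGA2* and *LAMB3* then lost their calls, as did *ITGA6* without sh-LNMAT1#2. *ITGB4*, *LAMA3* and *COL17A1* kept theirs without any 1 of the 4 libraries. They had passed the filter on low values through 5637 alone and had to differ, so a kept call is no support for them.

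**Figure D1:**
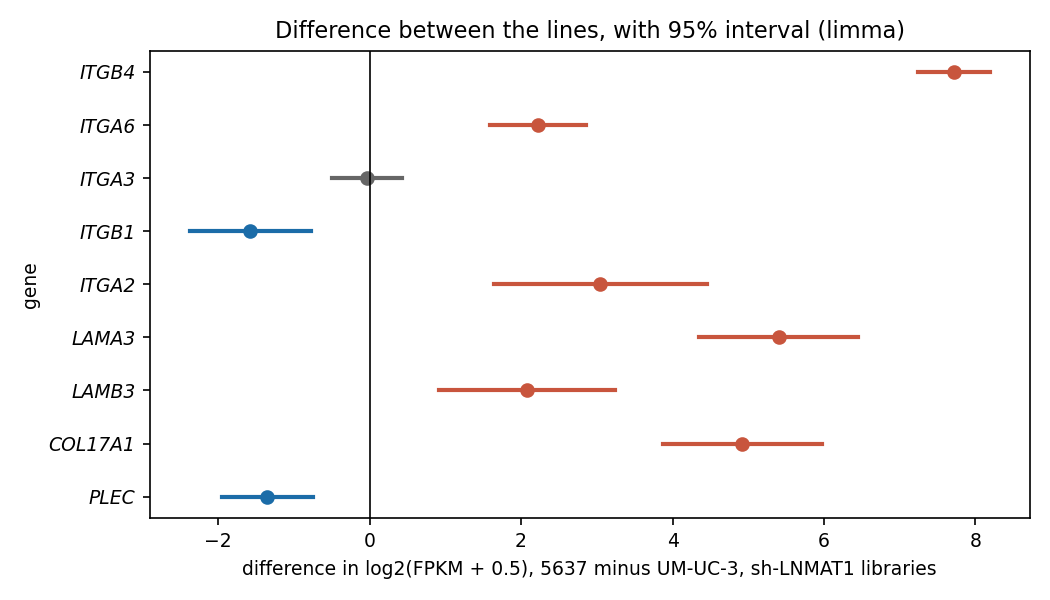
Difference in log2(FPKM + 0.5) between the sh-LNMAT1 libraries of 5637 and of UM-UC-3 (horizontal) for each gene (vertical), with points for the limma estimate and lines for its 95% interval. Red marks genes higher in 5637, blue genes lower and grey *ITGA3*, which did not pass the test; the difference of *ITGB4* (7.71) is the farthest from 0.

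The order of levels, on the FPKM scale per length, differed between the lines. In all 3 UM-UC-3 libraries *ITGB1* was highest, followed by *ITGA3* and *PLEC*, and *ITGB4* was last. The library labelled 5637 sh-NC had the same first 3 and the same last gene. In 5637 sh-LNMAT1#1 *ITGB4* was first of the 9 at 111 FPKM, and in sh-LNMAT1#2 it was second at 109 FPKM behind *LAMB3* at 116 FPKM. With 1 library per construct, neighbours such as *LAMB3* and *ITGA6* in UM-UC-3 changed places between libraries and cannot be ordered.

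In UM-UC-3 the hairpins were then compared with their sh-NC library, to ask whether silencing *LNMAT1* moved the same genes within a line. Each hairpin was set against a single control library, and a gene was called where both hairpins moved it at least 2-fold the same way. Of the 9 genes, 7 passed a mean of 1 FPKM and *ITGB4* and *LAMA3* did not. None of the 7 was higher with both hairpins, against a background of 1.08% of 12025 genes, and 1 was lower, against 0.358%. That gene was *COL17A1*, with log2 changes of -2.44 and -1.24, from a level of 3.40 FPKM in sh-NC. The lower of its levels, 0.216 FPKM, rests on between 2.00 and 34.1 fragments. In limma of both hairpins against that 1 control, a test chosen after seeing the data and with 1 residual degree of freedom, *COL17A1* differed by -1.84 (unadjusted p = 0.0127, adjusted p = 0.9997). None of the 7 genes passed in that test, against 0.00832% of 12025 genes (1 gene, with 399 at an unadjusted p under 0.05). Of 7 mesenchymal markers kept in UM-UC-3, 1 was called lower with both hairpins and 0 higher. That was *VIM*, at 331.9 FPKM in sh-NC against 116 and 155 FPKM. *CDH2*, *SNAI2* and *FN1* were instead higher with each hairpin, short of 2-fold with both. The part of *VIM* in the change of *COL17A1* was not tested. The hairpins lay at least 2-fold apart for 3 of the 7 genes, against 8.79% of all genes. *ITGA2* moved by 0.49 and -1.01, *LAMB3* by -0.70 and 0.35, and *COL17A1* as given above. *ITGB1* was higher by 0.96 with sh-LNMAT1#1 and by 0.09 with sh-LNMAT1#2, so a single hairpin carried that difference. *ITGA6* (0.06 and 0.44), *ITGA3* (-0.08 and -0.24) and *PLEC* (-0.14 and -0.01) lay within 2-fold of sh-NC.

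Against the library labelled 5637 sh-NC, all 9 genes were kept in 5637, 6 were higher with both hairpins and 1 was lower, against 18.5% and 12.3% of 12791 genes. *ITGB4*, *LAMA3* and *COL17A1* passed the filter through the sh-LNMAT1 pair alone and had to differ, here and in the added limma test below. Their calls are therefore no support. The changes with sh-LNMAT1#1 and sh-LNMAT1#2 were 7.74 and 7.71 for *ITGB4*, 5.42 and 5.32 for *COL17A1*, and 4.90 and 6.03 for *LAMA3*. Those of *ITGA2* were 2.70 and 3.57, of *ITGA6* 2.61 and 3.06, and of *LAMB3* 1.59 and 2.51. *ITGB1* was the lower gene, at -1.63 and -1.57, and *PLEC* at -0.92 and -1.41 and *ITGA3* at 0.58 and 0.64 were not called. In the added limma test of 2 hairpins against 1 control, 7 of the 9 were higher and 2 lower, against 45.7% of all genes called in either direction. As that library lay nearer UM-UC-3 for 8 of these genes, an effect of the hairpins and a difference between cell lines cannot be told apart here. Between the 5637 sh-LNMAT1 libraries, a comparison that does not use it, *LAMA3* alone of the 9 genes differed at least 2-fold, by 1.13 on the log2 scale in favour of sh-LNMAT1#2, against 2.01% of all genes. *LAMB3* differed by 0.92 and *ITGA2* by 0.87 in the same direction, and *ITGB4* by -0.03.

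When all 6 libraries were pooled in limma, with a term for the line, 0 of the 9 genes passed, and of 12717 genes tested 0.0% did (0 at an adjusted p under 0.05, 811 at an unadjusted p under 0.05). The targeted *LINC01296* differed by -1.40 and did not pass either (limma adjusted p = 0.569). Of the 9, *ITGA6* (difference 1.54, unadjusted p = 0.0407) and *LAMA3* (2.84, unadjusted p = 0.0489) were under 0.05 before limma's p-values were adjusted, and both had an adjusted p of 0.569. Without the library labelled 5637 sh-NC those estimates fell to 0.25 and 0.22, and that of *ITGB4* from 3.88 to 0.03. By construction, the fit without that library gives the mean hairpin change in UM-UC-3, since 5637 then has no control. Its estimate had the other sign for 5 of the 9 genes, among them *COL17A1*, at -1.84 against 1.76. Without UM-UC-3 sh-NC, 8 of the 9 passed, against 31.4% of all genes tested, and the library labelled 5637 sh-NC was then the only control. The interaction of line and hairpin was past the threshold for 4 of the 9 genes, against 18.8% of all genes, and it rests on the library labelled 5637 sh-NC as its only control of that line.

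The other genes of the complex and its surroundings were counted in lists, on the difference between the sh-LNMAT1 libraries of the lines. As above, 20.1% of all genes were higher in 5637 and 18.4% lower, with a median of -0.02, and counts near these shares are no result about a list. Of 5 hemidesmosome and laminin-332 partners, 4 were tested, 1 was higher in 5637 and 1 was lower, with a median of -0.60. The higher gene, *KRT5*, passed the filter through 5637 alone. Of the 3 that reached a mean of 1 FPKM in each line, 0 were higher and 1 was lower. *KRT5*, a basal keratin that plectin anchors, was at 0.0387 and 0.0376 FPKM in the UM-UC-3 sh-LNMAT1 libraries and at 81.1 and 155 FPKM in those of 5637. *DST*, whose epithelial isoform is a hemidesmosomal plakin, was lower, at 14.8 and 21.4 against 5.02 and 4.53 FPKM. The tetraspanin *CD151*, which binds α3β1 and α6β4, was at 28.1 and 24.8 against 22.7 and 19.8 FPKM and did not pass. *ERBB2IP*, whose product binds β4, was at 5.15 and 7.67 against 2.59 and 3.79 FPKM and did not pass. FPKM per gene does not separate the epithelial isoform of *DST* from the others.

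Of the other laminin chains, 6 were tested, 5 were higher in 5637 and 1 was lower. The 5 that reached a mean of 1 FPKM in each line held 4 higher and 1 lower. *LAMA5*, the α5 chain of most mature basement membranes, was at 10.1 and 9.78 against 48.1 and 49.8 FPKM. *LAMB1* (10.8 and 8.11 against 46.1 and 46.8 FPKM) and *LAMC1* (43.4 and 36.8 against 102 and 128 FPKM), the common β and γ chains, were also higher. *LAMB2*, another β chain, was lower (19.2 and 13.8 against 8.95 and 7.06 FPKM).

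Of 12 basement membrane components and anchors tested, 9 were higher, 0 lower and 3 did not pass. Of the 12, 9 also reached a mean of 1 FPKM in the sh-LNMAT1 libraries of each line, and 6 of these were higher, against 13.9% of all such genes. *NID1*, which links laminin to collagen IV, was at 1.38 and 0.570 against 39.5 and 65.0 FPKM. *COL4A2*, a chain of collagen IV, was at 7.57 and 4.01 against 119.7 and 59.5 FPKM. The proteoglycan genes *HSPG2* (12.6 and 19.8 against 20.8 and 28.8 FPKM) and *AGRN* (20.3 and 34.6 against 40.6 and 46.8 FPKM) did not pass.

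Of 7 other integrin chains tested, 2 were higher and 3 lower, with a median of -0.21. The 2 higher genes passed the filter through 5637 alone. Of the 4 that reached a mean of 1 FPKM in each line, 0 were higher and 2 lower. *ITGA5*, the fibronectin receptor chain, was lower in 5637 (24.2 and 16.5 against 5.94 and 5.06 FPKM), as was *ITGB5* (14.4 and 20.5 against 7.96 and 7.14 FPKM). *ITGB6*, an epithelial partner of αv, was higher (0.0102 and 0.0132 against 12.5 and 10.3 FPKM). *ITGAV*, their common partner, was at 14.2 and 14.1 against 13.1 and 13.8 FPKM and did not pass.

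Of 5 plakins tested 3 were higher and 2 lower. The 3 higher genes passed the filter through 5637 alone, and the 2 that reached 1 FPKM in each line were both lower. The desmosomal plakins *DSP* (0.153 and 0.220 against 18.8 and 18.5 FPKM) and *EVPL* (0.00571 and 0.0111 against 6.23 and 5.13 FPKM) were among the higher genes, and *MACF1* (13.1 and 14.5 against 4.84 and 3.78 FPKM) was lower like *PLEC* and *DST*. Integrin adhesion linkers and kinases, which join β1 integrins to actin, had 4 of 18 higher, 5 lower and a median of -0.24, beside 20.1% and 18.4% of all genes. *FLNA* (198 and 181 against 96.9 and 75.2 FPKM) and *ZYX* (38.6 and 50.7 against 20.2 and 19.2 FPKM) were lower, *ACTN4* (57.0 and 65.3 against 102 and 92.5 FPKM) was higher, and *TLN1* (47.6 and 54.4 against 39.3 and 37.2 FPKM) did not pass.

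Proteases that trim laminin-332 or collagen XVII had 2 of 6 higher, 2 lower and a median of 0.73, beside 20.1% and 18.4% of all genes. *MMP2* was higher (9.43 and 7.21 against 28.7 and 27.3 FPKM). The shedding enzymes *ADAM9* (44.1 and 62.5 against 22.5 and 21.7 FPKM) and *ADAM17* (30.5 and 28.7 against 14.8 and 14.3 FPKM) were lower. *MMP14* (95.7 and 19.1 against 76.3 and 72.8 FPKM) did not pass. In UM-UC-3, no gene of these 7 lists was called with both hairpins.

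Markers of cell state moved with these genes between the lines, and their part in the differences was not tested. The 8 epithelial markers had summed levels of 20.6 to 30.0 FPKM in UM-UC-3 and 497 to 605 FPKM in the 5637 sh-LNMAT1 pair, and that of the library labelled 5637 sh-NC was 26.3 FPKM. Of the epithelial markers only 2, and of the 4 urothelial markers tested only 1, reached a mean of 1 FPKM in the sh-LNMAT1 libraries of each line. *TP63*, a basal cell factor, was at 0.108 and 0.238 against 11.7 and 13.9 FPKM. All 4 urothelial markers tested were higher in 5637, among them *PPARG* (3.85 and 0.939 against 16.6 and 16.8 FPKM). The uroplakins were all under the filter. *UPK1A* was at 0.338 and 0.410 against 0 and 0.0485 FPKM, and *UPK2* at 0.0269 and 0.0261 against 0.403 and 0.556 FPKM. Of 7 mesenchymal markers tested, 4 were lower and 2 higher, with *VIM* at 116 and 155 against 3.85 and 4.14 FPKM and *FN1* at 2.27 and 1.07 against 110 and 102 FPKM. Of the 7, 5 reached a mean of 1 FPKM in each line, and 2 of these were lower and 2 higher. The fibroblast list had 1 gene tested, *COL1A1*, which was higher. The leukocyte list had 1, *CD68*, which was lower, and of 4 endothelial markers none reached 1 FPKM on average. *COL1A1* passed the filter through 5637 alone and *CD68* through UM-UC-3 alone, so each had to differ.

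The genes whose pattern over the 6 libraries lay nearest each of the 9 were found among 11545 genes by the root mean square difference of centred log2 values, as a description without a test. The nearest to *ITGB4* were *MAL2* (0.14), *TINAGL1* (0.26) and *SFN* (0.26). Nearest to *LAMA3* were *OLR1* (0.19), *CALB1* (0.19) and *WNT7A* (0.23), and to *LAMB3* *SORD2P* (0.23), *PHF8* (0.28) and *S100A3* (0.28). *COL17A1* had no close match, its nearest being *CCDC71L* at 0.57, *SLC2A12* at 0.63 and *TNS3* at 0.64. For *ITGA6* they were *ZNF165* (0.11), *GBP2* (0.14) and *HADH* (0.20), and for *ITGA2* *TRIB2* (0.24), *HAS2* (0.31) and *KIAA1462* (0.32). *ITGA3* was nearest to *LIPA* (0.06), *SNX16* (0.09) and *CAMK1D* (0.10), *ITGB1* to *NPAS1* (0.04), *TCEA1P2* (0.08) and *C3orf58* (0.09), and *PLEC* to *NME4* (0.08), *MSANTD3* (0.09) and *MRPS31P4* (0.10).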

How the data were processed

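RNA from 6 lentivirally infected UM-UC-3 and 5637 lines was extracted with TRIzol and prepared with a stranded mRNA kit, per the labels. The authors deposited FPKM per gene (fragments scaled to gene length and library size), and the submitters' processing notes name HISAT2 and hg38. The annotation, the gene lengths and whether counting used strand are not given in the sources used here. Of 50869 rows, 1 without values was left out, and 50110 identifiers were found in GENCODE 29, which gave the exons named here. Depth (19375000 to 24711000 fragments) came from single-exon genes, whose values were whole fragments within 0.05 for at least 99.95% of them. Values of multi-exon genes were not whole, so the fragments behind them are given as a range, computed with the shortest annotated transcript and with every exon, and no count-based test was run. Such bounds cover counting error only.

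Samples were grouped by their labels. Differences are of log2(FPKM + 0.5), which understates changes of low genes, and only genes averaging 1 FPKM or more in the libraries compared were kept. Limma 3.58.1 (R 4.3.3, lmFit, eBayes with a trend) was fitted over all genes kept, with Benjamini-Hochberg adjustment. It used the 4 sh-LNMAT1 libraries for the line difference, all 6 with the line as covariate for the pooled effect, and all 6 for the interaction, and was tested on simulated data. Python 3.11.15 with pandas 2.3.3 did the rest. The genes named were all 9, the 4 genes of highest mean FPKM per list (all named for the lists of the complex and its surroundings, examples only for the markers), the 3 nearest patterns per gene, and *LINC01296*. The 9 genes and the lists were chosen with earlier results of these data known. Another gene of the lists is not reported here. Alternatives were pseudocounts of 0.1 and 1, no filter or one of 5 FPKM, 75th-percentile scaling, 1.5-fold and 5-fold limits, single hairpins, no trend, no line covariate, a hairpin block, other sets of libraries, leaving out each library and, chosen after seeing the data, limma of 2 hairpins against 1 control within a line. The hairpin number does not pair the libraries by any label.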

Additional observations from a re-analysis of the deposited data

Results flagged for a closer look

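In limma, the interaction of hairpins and cell line was past the threshold for 4 of the 9 genes, with 5637 set against the library labelled 5637 sh-NC. In the same test 18.8% of all 12717 genes were called. *ITGB4* and *LAMA3* were near 0 in every UM-UC-3 library and in the library labelled 5637 sh-NC. They passed the filter on low values through the 5637 sh-LNMAT1 pair alone and had to differ. The effect in 5637 minus that in UM-UC-3 was 7.70 for *ITGB4* (adjusted p = 0.0028), 7.21 for *COL17A1* (0.0044), 5.24 for *LAMA3* (0.0100) and 2.59 for *ITGA6* (0.0175), on the log2 scale. For *COL17A1* the hairpin changes had opposite signs, -2.44 and -1.24 in UM-UC-3 against 5.42 and 5.32 in 5637. In all 4 differences an effect of the hairpins and a difference between cell lines cannot be told apart. They use the library labelled 5637 sh-NC as the only control of its line. The part of that library in the interaction was not tested, since without it none can be fitted.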

How the results depend on the processing

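In the line comparison the 6 higher and 2 lower genes stayed at 6 and 2 under both other pseudocounts, the filter of 5 FPKM, 75th-percentile scaling, no trend and UM-UC-3 sh-NC added. The replicate block (hairpin number) also gave 6 and 2, and changed no call; same-numbered libraries share only a construct. Without a filter 4 were higher and 1 lower, against 3039 higher and 2168 lower among all 35185 genes tested. *LAMB3*, *ITGB1* and *ITGA2* were then lost. With all 6 libraries as labelled 0 were higher and 0 lower, against 1 gene higher and 1 lower among all 12717 tested. With 1 library left out, the lone library of a line is assumed to vary like the other pair. Some calls were then lost, as given above. *ITGA3* then lay between -0.11 and 0.045, changing sign without UM-UC-3 sh-LNMAT1#1. The pooled test called 0 to 8 of the 9 when 1 library was left out, 8 of them without UM-UC-3 sh-NC, where 31.4% of all genes passed. Its estimates spanned -0.17 to 2.05 for *LAMB3*, -1.60 to 0.53 for *ITGB1* and -0.16 to 0.61 for *ITGA3*. Those of *ITGA2* spanned -0.26 to 3.13 and those of *COL17A1* -1.84 to 5.37. The sign was reversed in each of these without the library labelled 5637 sh-NC. By construction, that fit gives the hairpin change in UM-UC-3 alone. The interaction called 3 to 6 of the 9 when 1 library was left out, and 1 without a filter. In UM-UC-3 the 1 gene lower with both hairpins became 0 with the filter of 5 FPKM or at 5-fold, 2 with sh-LNMAT1#2 alone, and 0 in limma of 2 hairpins against 1 control, chosen after seeing the data. In 5637 the 1 lower gene became 2 at 1.5-fold, with sh-LNMAT1#2 alone or in that test, and 0 at 5-fold. Beyond what the tighter or looser thresholds do by construction, the cause was not tested. The pseudocount set the size for *ITGB4*, whose mean change in 5637 was 9.81 with 0.1 and 6.76 with 1. Depth limits *ITGB4* in UM-UC-3, where few fragments lie behind each value, while for *LAMA3* their number is only bounded. edgeR and DESeq2 were not run, as whole reads could not be recovered for genes of several exons.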
